A study of Mus musculus with 9 samples.

Results

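The 6 CXC chemokine ligand genes Cxcl1, Cxcl2, Cxcl3, Cxcl9, Cxcl10 and Cxcl16 were followed in monocytes from mouse spleen by RNA sequencing. They were taken by gene name from the deposited expression table, in which they were 6 of 26770 entries with values, and all 6 passed the filter on low counts. Cxcl9 passed it on only 4 to 28 counts per library. The study held 9 libraries in 3 groups of 3, all from the spleen of wild-type mice, and the series text places it in work on the olfactory receptor Olfr2 in monocytes during ischemia and reperfusion of the heart. One group was primed with a low dose of lipopolysaccharide (LPS, a bacterial cell wall component sensed by Toll-like receptor 4) and then given octanal, an aldehyde, at 20 µM. The LPS group received LPS at 40 ng/ml for 5 hours. The untreated group received the solvent DMSO at a dilution of 1 in 1000. The labels of the octanal samples read 18, 19 and 20 hours, and those of the untreated samples read 1 in 1000, 1001 and 1002, and each group was treated as uniform. DMSO is named for the untreated samples alone and the labels do not match the time in culture between groups, so octanal, solvent and time in culture cannot be told apart. The labels name neither separate animals nor separate cultures for the replicates, so p-values speak only of the variation among these 9 libraries, which may be technical. In bulk RNA, fewer cells of a type and less RNA per cell cannot be told apart.

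CXC chemokines are small secreted proteins that direct leukocyte migration through G protein-coupled receptors. Cxcl1, Cxcl2 and Cxcl3 attract neutrophils through the receptor Cxcr2, and myeloid cells switch them on within hours of Toll-like receptor signalling through the transcription factor NF-kappaB, with short-lived transcripts that carry AU-rich elements. Cxcl9 and Cxcl10 are induced by interferons and draw activated T cells and NK cells through Cxcr3. Cxcl16 is anchored in the membrane, acts on Cxcr6 and as a scavenger receptor, and is released from the cell surface by the proteases ADAM10 and ADAM17.

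The sequences upstream of the ligand genes are shown because Cxcl1, Cxcl2 and Cxcl3, which rose together in the counts, hold an identical 10-base match there. RefSeq (GRCm38.p6) gave the 250 bases before the start site of 5 of the 6 genes, read on the gene's own strand: Cxcl1 at chr5:90890995-90891244 (plus strand), Cxcl2 at chr5:90903649-90903898 (plus), Cxcl3 at chr5:90785851-90786100 (plus), Cxcl9 at chr5:92328080-92328329 (minus) and Cxcl10 at chr5:92348890-92349139 (minus). Capitals mark matches to the kappaB consensus and, in Cxcl10, also to an interferon-stimulated response element (ISRE) type motif.
Cxcl1: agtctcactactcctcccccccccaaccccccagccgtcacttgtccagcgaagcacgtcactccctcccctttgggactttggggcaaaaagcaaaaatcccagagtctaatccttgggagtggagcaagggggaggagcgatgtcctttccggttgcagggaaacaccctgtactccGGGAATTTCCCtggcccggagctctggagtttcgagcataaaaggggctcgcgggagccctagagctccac
Cxcl2: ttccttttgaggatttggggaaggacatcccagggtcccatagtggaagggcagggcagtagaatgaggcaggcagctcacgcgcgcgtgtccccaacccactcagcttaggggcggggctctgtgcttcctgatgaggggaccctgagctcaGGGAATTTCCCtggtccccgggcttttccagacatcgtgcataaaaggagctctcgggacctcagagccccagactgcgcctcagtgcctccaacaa
Cxcl3: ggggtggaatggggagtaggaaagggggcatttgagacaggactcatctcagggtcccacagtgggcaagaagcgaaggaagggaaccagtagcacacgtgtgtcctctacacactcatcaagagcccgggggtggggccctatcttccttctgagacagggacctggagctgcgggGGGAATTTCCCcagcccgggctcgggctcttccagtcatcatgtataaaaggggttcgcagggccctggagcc
Cxcl10: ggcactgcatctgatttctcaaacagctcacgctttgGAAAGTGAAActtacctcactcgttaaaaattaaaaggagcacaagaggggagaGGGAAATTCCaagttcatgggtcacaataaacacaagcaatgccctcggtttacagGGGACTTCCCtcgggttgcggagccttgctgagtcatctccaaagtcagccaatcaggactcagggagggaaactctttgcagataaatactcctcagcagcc
The 3 attractant windows have the kappaB match GGGAATTTCC in common. It stood at -71 to -62 bases from the start site in Cxcl1, at -97 to -88 in Cxcl2 and at -73 to -64 in Cxcl3. A second match to the kappaB consensus, GGAATTTCCC, overlapped each of them, 1 base further on. Searched on both strands of 32807 RefSeq windows of the same 250 bases, GGGAATTTCC was present in 28 (0.0853%), those of the 3 attractants from which it was taken among them. The kappaB consensus as a whole was in 3.9% of windows and in 4 of the 5 ligand windows. Cxcl10 held the second match of the attractants, GGAATTTCCC, on the opposite strand, where it reads GGGAAATTCC at -159 to -150. Another form of the consensus in Cxcl10 was GGGACTTCCC at -103 to -94. Cxcl10 also held the ISRE-type match GAAAGTGAAA at -213 to -204 (motif GAAANNGAAA, in 2.97% of windows and 1 of 5 ligand windows) and the AP-1-type match TGAGTCA at -74 to -68 (motif TGANTCA, in 6.75% and 1 of 5). TATAAA, searched on the gene's strand alone, was in 7.6% of windows, in Cxcl3 at -30 to -25 and in Cxcl9 at -195 to -190, the single match of any searched motif in Cxcl9. A match is a description of the letters and not a test of binding.

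**Figure D1:**
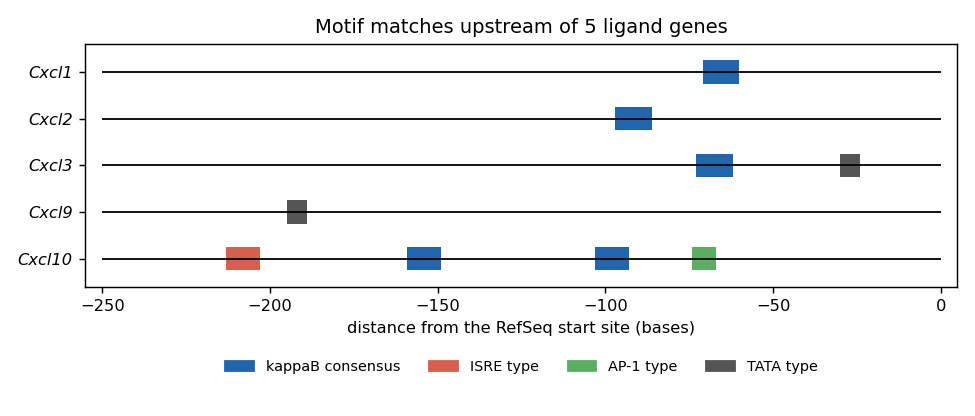
Motif matches in the 250 bases before the RefSeq start site of 5 ligand genes; the horizontal axis is the distance from the start site in bases and each block spans 1 match or overlapping matches. KappaB matches (blue) lie between -97 and -61 in Cxcl1, Cxcl2 and Cxcl3, and Cxcl10 has kappaB, ISRE-type and AP-1-type matches, while Cxcl9 has neither kappaB nor ISRE-type matches.

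The 3′ UTRs of the genes differed in the pentamer ATTTA, the core of AU-rich elements that speed mRNA decay. The 30-base stretch with the most such pentamers is shown for the 3 neutrophil attractants and, for contrast, for Cxcl10, with ATTTA in capitals; all lie on chromosome 5 of GRCm38, in the first GENCODE M21 transcript of each gene.
Cxcl1: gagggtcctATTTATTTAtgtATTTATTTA
Cxcl2: tATTTATTTAtctatgtATTTATTTATTTA
Cxcl3: caagatggcatcttATTTAatgtttATTTA
Cxcl10: ttttatttcagatgtaagactacaaATTTA
Cxcl2 held 11 ATTTA in a 3′ UTR of 734 bases (15 per kb), Cxcl1 held 7 in 592 bases (11.8 per kb) and Cxcl3 held 5 in 645 bases (7.75 per kb). These rates exceeded those of 99.7%, 99.5% and 97.6% of 19155 protein-coding genes, whose median was 1.31 per kb. Cxcl10 had 2 in 729 bases (2.74 per kb, above 74.2% of genes), Cxcl16 had 2 in 1421 bases (1.41 per kb) and Cxcl9 had 3 in 2452 bases (1.22 per kb), close to that median. The longer form TATTTAT occurred 6 times in Cxcl1, 7 times in Cxcl2, 2 times in Cxcl3 and 0 times in Cxcl9, Cxcl10 and Cxcl16, and 27.4% of all genes held at least 1.

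Of the 6 genes, 5 form a pair of clusters on chromosome 5 of GRCm38, with positions from GENCODE M21. Cxcl3 (ENSMUSG00000029379; 90786103 to 90789600, plus strand), Cxcl1 (ENSMUSG00000029380; 90891241 to 90893115, plus) and Cxcl2 (ENSMUSG00000058427; 90903871 to 90905938, plus) lie 102 kb and 10.8 kb apart. Cxcl9 (ENSMUSG00000029417; 92321347 to 92328079, minus) and Cxcl10 (ENSMUSG00000034855; 92346638 to 92348889, minus) lie 18.6 kb from each other and 1415.4 kb beyond Cxcl2. Cxcl16 (ENSMUSG00000018920; chromosome 11, 70453983 to 70459984, minus) has 5 exons, and each of the other 5 genes has 4. The coding sequences of Cxcl2 and Cxcl3 were 89.8% identical and their transcripts share an exact run of 110 bases, so reads could be split between these 2 genes and their separate values are uncertain to that extent. Cxcl1 was 75.6% identical to Cxcl2 and 72.6% to Cxcl3, with a longest shared run of 23 bases in each case. Cxcl10 lies within the span of Art3, which had 0 to 0.161 CPM (counts scaled to library totals), and Cxcl16 overlaps Zmynd15 (6.09 to 15.4 CPM). The use of strand in counting is not given in the sources used here, so reads of overlapping genes cannot be told apart.

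Libraries held 29594291 to 38388421 counts, and no pair of replicates agreed within counting noise (chi-square over genes 42.9 to 142 per degree of freedom). Against the labelled cell type, the classical monocyte markers Ly6c2 and Ccr2 averaged 0.875 and 1.5 CPM in LPS with octanal, 2.95 and 1.47 CPM in LPS, and 140 and 14.6 CPM in untreated libraries, while the monocyte receptor gene Csf1r averaged 379, 231 and 402 CPM in the same order. The summed level of 10 neutrophil markers was 6024 to 13220 CPM in LPS with octanal, 1857 to 2300 CPM in LPS and 13240 to 26030 CPM in untreated libraries. That of 7 T cell markers was 403 to 638, 700 to 854 and 84.1 to 389 CPM in these groups. Replicate 1 of both LPS groups stood apart in interferon-stimulated genes, as given beside Cxcl10.

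Cxcl1, Cxcl2 and Cxcl3 rose in LPS with octanal against untreated libraries and no ligand fell, so 3 of the 6 were called by edgeR's quasi-likelihood test at a Benjamini-Hochberg adjusted p under 0.05. Over all 15447 genes tested, 8.67% were called in that comparison and 2.63% as higher. In LPS against untreated libraries, 4 of the 6 rose, Cxcl1, Cxcl2, Cxcl3 and Cxcl10, where 32.8% of all genes were called and 15.2% as higher. In LPS with octanal against LPS, 0 of the 6 were called, as were 0 of all genes (0%), with 3450 genes (22.3%) at an unadjusted p under 0.05. Cxcl1, Cxcl2 and Cxcl3 were nonetheless higher in each LPS with octanal library than in each LPS library, which 18.3% of all genes were. By the DESeq2 Wald test these 3 ligands were called in that comparison, where DESeq2 called 1624 genes, 12.7% of those it tested. The 3 comparisons share libraries pairwise and are not independent of each other.

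**Figure D2:**
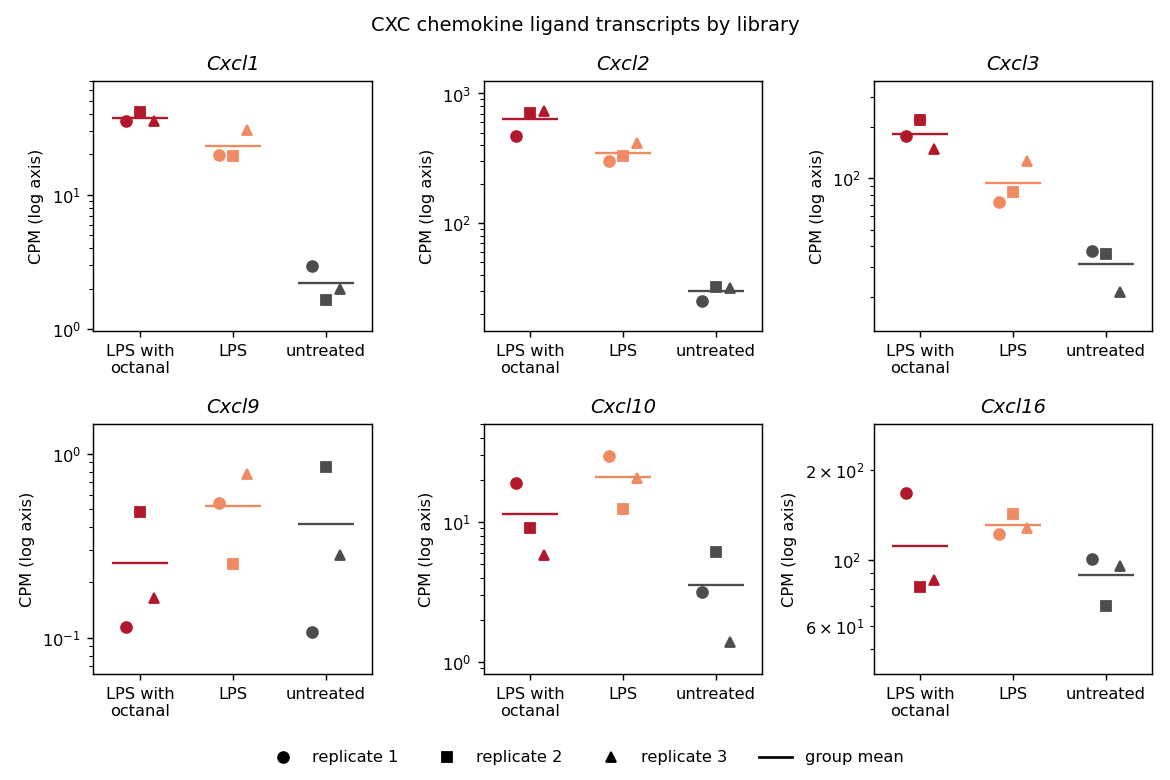
CPM of each ligand in each library on a log axis, by group, with symbols for the replicates and a line at the group mean. Cxcl1, Cxcl2 and Cxcl3 form 3 separate tiers, Cxcl10 separates LPS from untreated libraries only, and the groups overlap throughout for Cxcl9.

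Cxcl2, a neutrophil attractant of myeloid cells, was the most abundant of the ligands in stimulated cells. It stood at 466, 713 and 734 CPM in LPS with octanal replicates 1 to 3, at 304, 328 and 416 CPM in the LPS replicates and at 25.1, 32.6 and 32.0 CPM in the untreated replicates. The 3 groups did not overlap, and every stimulated library lay far above every untreated one. Of all genes, 13.5% were higher in each LPS with octanal library than in each untreated one, and 26.7% were higher in each LPS library than in each untreated one. Its log2 fold change was 4.42 for octanal-treated against untreated cells (SE 0.232, adjusted p = 0.000171), a 21.3-fold rise with the lowest p of the 15447 genes in that comparison. In LPS against untreated it was 3.55 (SE 0.223, adjusted p = 0.00041), an 11.7-fold rise.

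Cxcl1, which acts on the same receptor, had 35.4, 41.5 and 35.3 CPM in LPS with octanal libraries, 19.8, 19.4 and 30.3 CPM in LPS libraries and 2.96, 1.64 and 1.98 CPM in untreated libraries. The groups again formed 3 tiers without overlap, with LPS replicate 3 the nearest to the octanal libraries. Cxcl1 rose by a log2 fold change of 4.08 in LPS with octanal (SE 0.275, adjusted p = 0.000516; 17.0-fold) and of 3.39 in LPS (SE 0.268, adjusted p = 0.000457; 10.5-fold), each against untreated.

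Cxcl3, the third of the neutrophil attractants, had 177, 221 and 148 CPM in LPS with octanal libraries, 72.9, 82.9 and 126 CPM in LPS libraries and 37.5, 35.7 and 21.4 CPM in untreated libraries. It too was in 3 tiers, with LPS replicate 3 and LPS with octanal replicate 3 the nearest pair between both stimulated groups. Its untreated level was already high next to that of Cxcl1, at 28.5 ± 8.82 against 2.08 ± 0.644 FPKM (fragments scaled to gene length and library depth, which compares genes per length; SD, n = 3), and its rises were smaller. They were 2.53 on the log2 scale in LPS with octanal (SE 0.281, adjusted p = 0.00258; 5.77-fold) and 1.58 in LPS (SE 0.273, adjusted p = 0.00434; 2.98-fold), each against untreated. All 3 attractants remained called in both of these comparisons under each of the 18 alternative settings tried.

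For LPS with octanal against LPS, the log2 fold change of Cxcl2 was 0.87 (SE 0.202, 95% interval 0.41 to 1.33, adjusted p = 0.0712), that of Cxcl3 was 0.95 (SE 0.267, 0.35 to 1.56, adjusted p = 0.0987) and that of Cxcl1 was 0.69 (SE 0.238, 0.15 to 1.23, adjusted p = 0.143). These correspond to 1.83-fold, 1.94-fold and 1.61-fold higher levels with octanal, and none of the 3 passed the threshold in the fit of 9 libraries. The lowest adjusted p of any gene in this comparison was 0.0508. Whether they were called rested on the settings. DESeq2 gave adjusted p = 0.00207 for Cxcl2, 0.00792 for Cxcl3 and 0.0393 for Cxcl1, and edgeR fitted to those 2 groups only, 6 libraries, gave 0.0487, 0.0494 and 0.0596 in the same order. Without LPS with octanal replicate 1, which had the lowest Cxcl2 of its group, edgeR called Cxcl2 (1.09, adjusted p = 0.044). Over all 18 alternatives the adjusted p ran from 0.00207 to 0.272 for Cxcl2, from 0.00792 to 0.306 for Cxcl3 and from 0.0393 to 0.395 for Cxcl1, each with a positive fold change throughout. A list of 10 neutrophil markers moved the same way in this comparison, with 10 of 10 changes positive (median log2 fold change 1.92). Of these markers edgeR called 0 in the fit of 9 libraries and 8 in the fit of those 2 groups, and DESeq2 called 8, all as higher with octanal. DESeq2 called 12.7% of all genes it tested in this comparison. The fit of those 2 groups called many other genes too, with its total given among the alternatives below. The untreated libraries, labelled without LPS, had the highest neutrophil marker sums and the lowest Cxcl1, Cxcl2 and Cxcl3. The part of the neutrophil markers in the values of the attractants was not tested in any comparison.

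**Figure D3:**
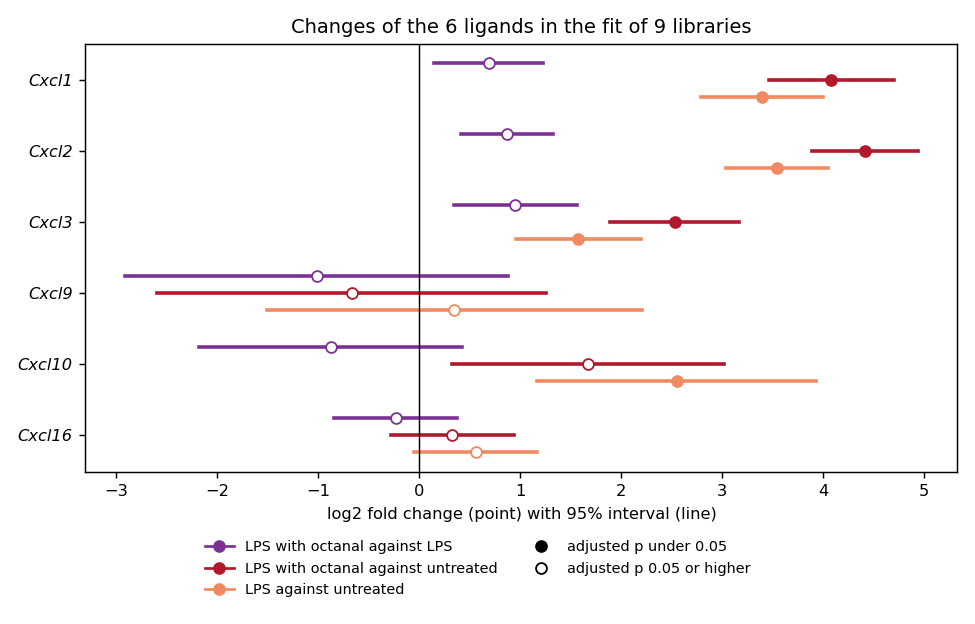
Log2 fold change of each ligand in the 3 comparisons (points) with 95% intervals (lines); filled points have an adjusted p under 0.05. The intervals of Cxcl1, Cxcl2 and Cxcl3 lie above 0 in all 3 comparisons, but those of LPS with octanal against LPS carry open points (adjusted p 0.0712 to 0.143).

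Cxcl10, a ligand of Cxcr3 on activated T cells, took a different course: its highest group was LPS and not LPS with octanal. It had 19.2, 9.08 and 5.76 CPM in LPS with octanal libraries, 29.4, 12.4 and 20.6 CPM in LPS libraries and 3.15, 6.12 and 1.38 CPM in untreated libraries. All LPS libraries lay above all untreated ones, whereas the octanal libraries spread over more than 3-fold and overlapped both other groups. In LPS against untreated it rose by 2.55 on the log2 scale (SE 0.611, adjusted p = 0.0149; 5.86-fold). That call was lost without LPS replicate 1 (2.21, adjusted p = 0.0514), and the change was 3.16 without untreated replicate 2 (adjusted p = 0.00738). Over 18 alternatives its adjusted p ran from 3.75e-05 to 0.0514. The log2 fold change in LPS with octanal against untreated was 1.67 (SE 0.597, adjusted p = 0.113), which passed by DESeq2 (1.69, adjusted p = 0.0171; DESeq2 called 16.5% of the genes it tested) and without untreated replicate 2 (2.30, adjusted p = 0.0453), in a range of 0.0171 to 0.301. The difference between both stimulated groups, -0.88 for LPS with octanal against LPS, did not pass (SE 0.575, 95% interval -2.18 to 0.42, adjusted p = 0.39).

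The spread of Cxcl10 within groups ran beside that of 12 interferon-stimulated genes, a list that does not hold it. As mean log2 CPM centred over the 9 libraries, these genes stood at 1.31, -0.13 and 0.08 in LPS with octanal replicates 1 to 3, at 1.84, 0.26 and 0.62 in the LPS replicates and at -1.73, -0.56 and -1.70 in the untreated replicates. Cxcl10 on the same scale stood at 1.18, 0.11 and -0.54, at 1.80, 0.56 and 1.29, and at -1.40, -0.45 and -2.55 in those libraries. In both LPS groups replicate 1 was the highest for the interferon-stimulated genes and for Cxcl10, and among untreated libraries replicate 2 was the highest for both. Cxcl1 did not share this order, with its centred values at 1.53, 1.76 and 1.52 in LPS with octanal, 0.69, 0.66 and 1.31 in LPS and -2.03, -2.86 and -2.59 in untreated libraries. Summed marker levels of other cell types set replicate 1 of the octanal group apart as well, which was the highest of its group in 9 of 13 marker lists. Among these were 8 conventional dendritic cell markers, at 929 CPM against 427 and 491 CPM in replicates 2 and 3, 7 T cell markers, at 638 against 464 and 403 CPM, and 5 platelet and megakaryocyte markers, at 108 against 41.9 and 53.7 CPM. The dendritic cell sum was largely Ccr7, which averaged 552 ± 241 CPM in LPS with octanal, with Flt3 next at 34.0 ± 20.5 CPM (SD, n = 3). LPS replicate 1 was the highest of its group in 8 of 13 lists. The part of these marker lists in Cxcl10 was not tested. With replicate 1 of both LPS groups left out, Cxcl10 was at 2.21 (adjusted p = 0.0442) in LPS and at 1.09 (adjusted p = 0.301) in LPS with octanal, each against untreated.

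**Figure D4:**
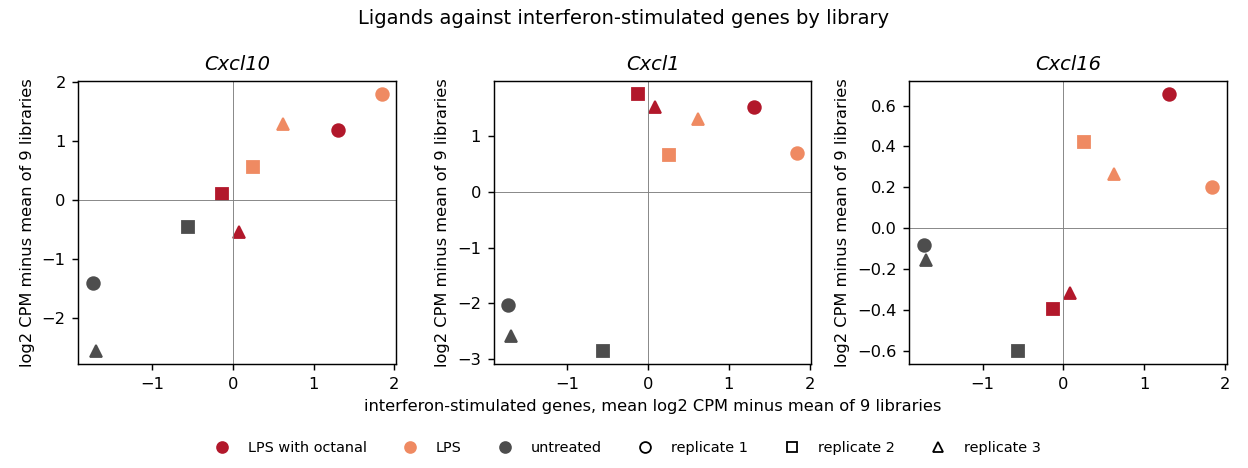
Centred log2 CPM of Cxcl10, Cxcl1 and Cxcl16 (vertical axes) against the centred mean log2 CPM of 12 interferon-stimulated genes (horizontal axis), 1 point per library, coloured by group and shaped by replicate. Cxcl10 is highest in LPS replicate 1 and LPS with octanal replicate 1 among the libraries of their groups, as the interferon-stimulated genes are, while Cxcl1 separates stimulated from untreated libraries.

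Cxcl9, the other Cxcr3 ligand and a target of interferon gamma, was close to the limit of detection in all groups. It had 4, 18 and 5 counts in LPS with octanal libraries, 21, 8 and 28 counts in LPS libraries and 4, 26 and 8 counts in untreated libraries, which is 0.115 to 0.483, 0.251 to 0.775 and 0.108 to 0.851 CPM. The groups overlapped in every comparison. Its log2 fold changes were -1.02 in LPS with octanal against LPS (95% interval -2.91 to 0.88), -0.67 in LPS with octanal against untreated (-2.59 to 1.25) and 0.35 in LPS against untreated (-1.51 to 2.20), with adjusted p of 0.492, 0.644 and 0.773 by edgeR. At counts this low and with this spread between libraries, no difference was detected, and the intervals leave room for changes in either direction.

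Cxcl16, the membrane-anchored ligand of Cxcr6, was expressed in every library, at 70.1 to 167 CPM. It had 167, 80.7 and 85.2 CPM in LPS with octanal libraries, 122, 142 and 128 CPM in LPS libraries and 100.4, 70.1 and 95.6 CPM in untreated libraries. Each LPS library exceeded each untreated one, as 26.7% of all genes did. LPS with octanal replicate 1 was the highest of the 9 libraries while replicates 2 and 3 lay within the untreated range. The log2 fold change was 0.56 in LPS against untreated (SE 0.269, 95% interval -0.05 to 1.17, adjusted p = 0.138), 0.33 for octanal-treated against untreated cells (SE 0.269, -0.28 to 0.93, adjusted p = 0.46) and -0.23 in LPS with octanal against LPS (SE 0.268, -0.84 to 0.37, adjusted p = 0.623). Without LPS with octanal replicate 1 the LPS change of 0.54 was called (adjusted p = 0.0291, in a range of 0.0291 to 0.319 over 18 alternatives) and the change of LPS with octanal against untreated was -0.083 (adjusted p = 0.788). Of its sheddases, named here after their values were seen, Adam17 averaged 676 ± 125 CPM in LPS with octanal, 394 ± 94.7 in LPS and 415 ± 85.3 in untreated libraries (SD, n = 3). EdgeR did not call it, and DESeq2 called it in LPS with octanal against LPS (0.82, adjusted p = 0.018). Adam10 fell by 0.34 on the log2 scale in LPS against untreated (adjusted p = 0.0468), at 152 ± 3.80 CPM in LPS and 192 ± 24.6 CPM in untreated libraries. Cxcr6 averaged 6.48, 9.82 and 7.80 CPM in LPS with octanal, LPS and untreated libraries and was not called.

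Per length, the ligands ranked differently in stimulated and untreated cells. The order of mean FPKM in LPS with octanal libraries was Cxcl2 (466 ± 101), Cxcl3 (165 ± 34.1), Cxcl16 (39.4 ± 18.5), Cxcl1 (36.0 ± 3.46), Cxcl10 (9.49 ± 6.06) and Cxcl9 (0.0760 ± 0.0620). Cxcl16 and Cxcl1 did not differ beyond their spread there. In LPS libraries it was Cxcl2 (274 ± 44.0), Cxcl3 (90.7 ± 27.7), Cxcl16 (49.5 ± 2.86), Cxcl1 (23.9 ± 6.50), Cxcl10 (18.5 ± 7.83) and Cxcl9 (0.176 ± 0.0917), with Cxcl1 and Cxcl10 within their spread of each other. In untreated libraries Cxcl16 (30.9 ± 4.82), Cxcl3 (28.5 ± 8.82) and Cxcl2 (20.3 ± 3.56) had the highest means. Cxcl10 (2.99 ± 2.16), Cxcl1 (2.08 ± 0.644) and Cxcl9 (0.129 ± 0.128) followed. Cxcl16 and Cxcl3 did not differ beyond their spread there, nor did Cxcl3 and Cxcl2 or Cxcl10 and Cxcl1.

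The composition of the ligand transcripts shifted accordingly. Cxcl1, Cxcl2 and Cxcl3 together made up 87.7 to 95.5% of the summed FPKM of the 6 in LPS with octanal, 82.2 to 87.7% in LPS and 55.5 to 65.3% in untreated libraries. Cxcl2 alone took 55.7 to 72.8%, 59.5 to 60.3% and 18.3 to 28.1% in these groups, and Cxcl16 took 3.58 to 9.70%, 8.87 to 12.9% and 28.5 to 43.0%. The ratio of Cxcl2 to Cxcl3 was 2.12, 2.63 and 4.04 in LPS with octanal, 3.52, 3.12 and 2.65 in LPS and 0.497, 0.706 and 1.13 in untreated libraries, so untreated libraries lay below all others. That of Cxcl3 to Cxcl1 was 4.70, 4.99 and 3.94 in LPS with octanal, 3.46, 4.0 and 3.91 in LPS and 11.9, 20.6 and 10.2 in untreated libraries. The ratio of Cxcl10 to Cxcl1 was 0.463, 0.189 and 0.141 in LPS with octanal libraries and 1.29, 0.547 and 0.582 in LPS libraries, which did not overlap, against 0.922, 3.26 and 0.593 in untreated libraries. The summed CPM of the 6 genes was 866, 1065 and 1008 in LPS with octanal, 549, 585 and 721 in LPS and 169, 147 and 153 in untreated libraries. Their means of 979.8 ± 103, 618 ± 91.0 and 156 ± 11.5 CPM (SD, n = 3) gave ratios of 1.58 for LPS with octanal against LPS, 6.27 for LPS with octanal against untreated and 3.96 for LPS against untreated. In each case an exact two-sided permutation test over libraries gave p = 0.1, the smallest that 3 against 3 libraries allow.

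**Figure D5:**
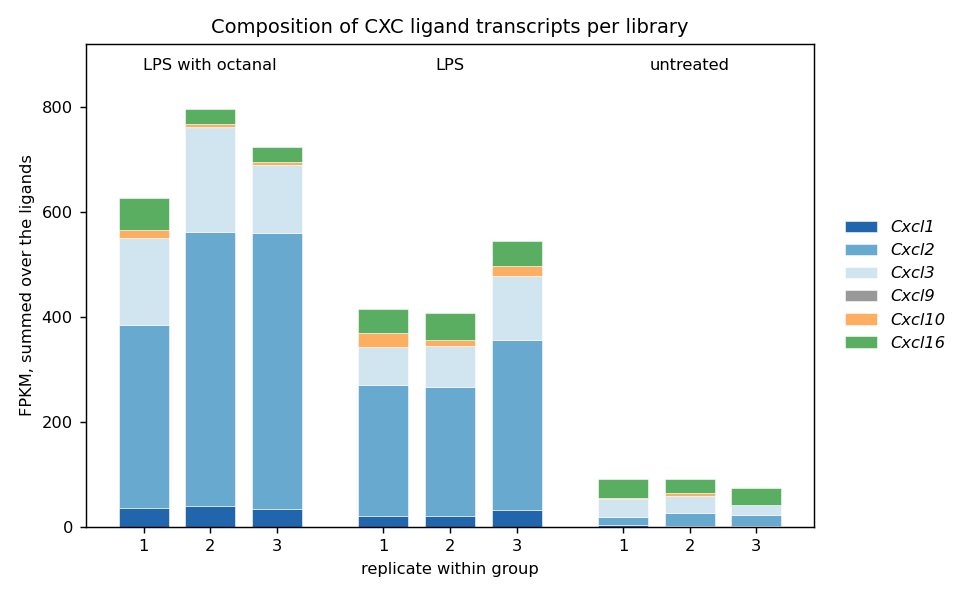
FPKM of the 6 ligands stacked per library, by group and replicate. Cxcl2 (mid blue) is the largest block in all stimulated libraries, and the untreated libraries are lower in total, with Cxcl16 (green) and Cxcl3 (pale blue) as large parts.

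Across the 9 libraries the neutrophil attractants followed each other closely. As a description over points that share groups, Pearson's r of log2 CPM was 0.98 between Cxcl1 and Cxcl2, 0.95 between Cxcl1 and Cxcl3 and 0.94 between Cxcl2 and Cxcl3 (n = 9 libraries), and it rests largely on the distance between the untreated and the other libraries. Cxcl10 had r of 0.71, 0.69 and 0.66 with Cxcl1, Cxcl2 and Cxcl3. Cxcl16 had 0.45, 0.36 and 0.30 with them, and Cxcl9 had -0.07, 0.01 and -0.05. Among 8666 annotated genes with a mean of at least 10 CPM, the patterns most like that of Cxcl2 were those of Nfkb2 (r = 0.995), an NF-kappaB subunit, Ripk2 (0.992), a kinase of innate sensing, and Fas (0.988), the death receptor. Those most like Cxcl1 were Nfkb2 (0.987), Fpr1 (0.985), a receptor for formylated bacterial peptides, and Ptges3 (0.982). For Cxcl3 they were Zmiz2 (0.974), Ppfibp2 (0.973) and Nqo1 (0.966), a quinone reductase. For Cxcl10 they were Tars2 (0.983), Cbx6 (0.978) and Nvl (0.976), and for Cxcl16 Gypc (0.943), Zbtb33 (0.929) and Adam23 (0.928). Cxcl9 reached only 0.882 with Lrp6, 0.846 with Hic2 and 0.83 with Znrd1, on its few counts. Nfkb2 averaged 277 ± 5.68 CPM in LPS with octanal, 244 ± 10.8 in LPS and 139 ± 4.47 in untreated libraries (SD, n = 3).

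The genes of the route to NF-kappaB were counted for the attractants. In LPS with octanal against untreated, 407 of all 15447 genes tested rose (2.63%) and 932 fell. In LPS against untreated, 2353 rose (15.2%) and 2719 fell. In LPS with octanal against LPS, edgeR called 0% of all genes and DESeq2 12.7% of those it tested. Of 20 genes from the LPS receptor to the NF-kappaB subunits, 6 rose and 0 fell in LPS with octanal against untreated (median log2 fold change 0.30, against -0.01 for all genes), with Nfkb2 at 1.00 (adjusted p = 0.000716), the atypical inhibitor family member Nfkbiz at 1.93 (adjusted p = 0.000843) and Nfkb1 at 0.67 (adjusted p = 0.0135). In LPS against untreated 5 rose, among them Nfkb2 (0.82, adjusted p = 0.000657) and Nfkbiz (1.21, adjusted p = 0.00154), and 2 fell, the adaptor Tirap (-1.51, adjusted p = 0.00117) and the receptor Tlr4 (-1.54, adjusted p = 0.00397), with a median of 0.09 against 0.01 for all genes. For octanal-treated against LPS cells, 15 of 20 changes were positive (median 0.23, against -0.05 for all genes). Of these edgeR called 0 in the fit of 9 libraries and 7, as higher, in the fit of those 2 groups. That fit also called many genes outside the list, with its total given among the alternatives below. DESeq2 called 9, all as higher, with Tirap (1.06, adjusted p = 6.89e-05), Tlr4 (1.31, adjusted p = 0.000294) and Nfkbiz (0.75, adjusted p = 0.00274) the lowest in p. Of 11 inhibitors and mRNA decay factors, 5 rose and 0 fell in LPS with octanal against untreated, such as the kinase-like brake Irak3 (2.83, adjusted p = 0.000516), the NF-kappaB inhibitor Nfkbia (1.44, adjusted p = 0.0008) and Tnip1 (1.60, adjusted p = 0.00192). In LPS against untreated 7 rose, such as Irak3 (1.68, adjusted p = 0.00105), Nfkbia (0.88, adjusted p = 0.00176) and Tnip1 (1.06, adjusted p = 0.00249), and the transcription factor Atf3 fell (-1.06, adjusted p = 0.00255). Against LPS, 9 of 11 changes were positive with octanal, of which edgeR called 0 in the fit of 9 libraries and 4 in the fit of those 2 groups, and DESeq2 called 5. The activation list had 3 to 5 rises in LPS with octanal against untreated when single libraries were left out, and the inhibitor list had 4 to 7 in LPS against untreated. Calls over all genes, in either direction, ran from 298 to 2137 and from 2387 to 5658 in these comparisons.

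The interferon route was counted for Cxcl9 and Cxcl10. Over all 15447 genes tested, 2353 rose and 2719 fell in LPS against untreated, and 407 and 932 in LPS with octanal against untreated. Of 12 interferon-stimulated genes, 9 rose in LPS against untreated (median 2.32), such as Oasl1 (3.68, adjusted p = 0.00446), the ubiquitin-like Isg15 (2.57, adjusted p = 0.0112) and the GTPase Gbp5 (1.69, adjusted p = 0.0116), and 0 fell. LPS with octanal against untreated held 3 rises (median 1.47), Oasl1 (2.71, adjusted p = 0.0321), Gbp5 (1.43, adjusted p = 0.0481) and Isg15 (2.13, adjusted p = 0.0491), and 0 fell. All 12 changes were negative in LPS with octanal against LPS (median -0.39), and 0 were called by edgeR or by DESeq2. That direction rested on LPS replicate 1, without which 9 of 12 changes were positive (median 0.16), where Cxcl10 stayed at -0.53. With replicate 1 of both LPS groups left out, 6 rose in LPS and 0 in LPS with octanal, each against untreated. Leaving out single libraries gave 4 to 9 rises in LPS, fewest without LPS replicate 1 or untreated replicate 1, and 0 to 7 rises in LPS with octanal, most without untreated replicate 2. Of 20 genes of the interferon activation route 18 were tested. In LPS against untreated 9 rose, such as the kinases Ikbke (1.77, adjusted p = 0.000767) and Tyk2 (0.56, adjusted p = 0.00614), and 5 fell, Irf8 (-1.57, adjusted p = 0.00208), Ticam1, Ticam2, Ifnar2 and Ifngr2, which encode a transcription factor, a pair of Toll-like receptor adaptors and a pair of receptor chains. Against untreated libraries, LPS with octanal had rises of Ikbke (2.57, adjusted p = 0.000516), Tyk2 (0.81, adjusted p = 0.00494) and Jak2 (0.61, adjusted p = 0.047) and falls of Irf8 (-1.33, adjusted p = 0.0117) and Ticam1 (-0.43, adjusted p = 0.0416). Against LPS, edgeR called 0 of the 18 and DESeq2 called 3 as higher with octanal, Ikbke, Ifnar2 and Ifngr2. DESeq2 called 12.7% of all genes it tested there, so 3 of 18 lies near the share over all genes. The 9 rises in LPS came down to 2 without LPS replicate 1, 3 without untreated replicate 1 or LPS replicate 3, 5 without LPS replicate 2 and 6 without untreated replicate 3. Calls over all genes moved with the library left out as well. In LPS against untreated they ran from 2387 without LPS replicate 1 to 5658 without untreated replicate 2. In LPS with octanal against untreated they ran from 298 without LPS with octanal replicate 2 to 2137 without untreated replicate 2. Interferon transcripts were barely seen, with 2, 8 and 5 counts of Ifnb1 and 2, 6 and 11 counts of Ifng summed over the LPS with octanal, LPS and untreated groups.

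Among the receptors for these ligands, Cxcr2, the receptor of Cxcl1, Cxcl2 and Cxcl3, averaged 23.6 ± 20.8 CPM in LPS with octanal, 4.72 ± 0.982 in LPS and 255 ± 83.4 in untreated libraries (SD, n = 3). It fell in LPS with octanal (-3.44, adjusted p = 0.0139) and in LPS (-5.75, adjusted p = 0.00105) against untreated, and its change in LPS with octanal against LPS was 2.32 (adjusted p = 0.0812; 2.36 and adjusted p = 0.000337 by DESeq2). Cxcr2 is a gene of neutrophils, and of 10 neutrophil markers 4 were called as lower in LPS with octanal and 9 in LPS, each against untreated. In LPS with octanal against untreated, 2 of the 10 changes were positive, those of Ly6g (0.57) and Lcn2 (0.31), without a call. The part of these markers in the Cxcr2 values was not tested. Of all 15447 genes tested, 932 fell in LPS with octanal and 2719 in LPS, each against untreated. Of the 9 receptor genes Cxcr5, a chemokine receptor gene of B cells, was the other that fell, and 0 rose. Its changes were -1.68 (adjusted p = 0.0499) in LPS with octanal and -1.61 (adjusted p = 0.024) in LPS, each against untreated. The libraries of the groups overlapped for Cxcr5 in both comparisons. The Cxcr3 gene averaged 6.21, 8.36 and 14.2 CPM in LPS with octanal, LPS and untreated libraries and was not called. Of 9 other CXC ligands 7 were tested, and Cxcl11, the third interferon-induced Cxcr3 ligand, was the single call. It had 46 counts over the LPS with octanal, 84 over the LPS and 2 over the untreated libraries. Its ratio was 37.7 in LPS against untreated (95% counting interval 10.1 to 316; edgeR adjusted p = 0.0126) and 21.6 in LPS with octanal against untreated (5.64 to 183; adjusted p = 0.053). Cxcl5, in the same cluster as Cxcl3 and also a Cxcr2 ligand, averaged 5.45 ± 2.23, 3.99 ± 1.03 and 3.25 ± 0.913 CPM in LPS with octanal, LPS and untreated libraries and was not called. Cxcl15 and Cxcl17 had no counts.

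Of 6 proteases and regulators that process such ligands, Mmp9 (-4.65, adjusted p = 0.00161), Mmp12 (-1.47, adjusted p = 0.013) and Adam10 fell in LPS against untreated, and Dpp4, the peptidase that trims Cxcl10, rose (1.24, adjusted p = 0.0197). Mmp12 fell in LPS with octanal against untreated as well (-1.73, adjusted p = 0.0201), where 0 rose. Of all 15447 genes tested, 2719 fell and 2353 rose in LPS against untreated, and 932 fell in LPS with octanal against untreated. Mmp9, a granule enzyme of neutrophils, averaged 241 ± 196 CPM in LPS with octanal, 30.8 ± 9.70 in LPS and 776 ± 159 in untreated libraries, in the order of the summed neutrophil markers. In LPS with octanal against LPS, DESeq2 called Mmp9 (3.00, adjusted p = 1.03e-06) and edgeR called 0 of these 6 genes.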

How the data were processed

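Spleen-derived monocytes were profiled by RNA sequencing of mRNA libraries, per the labels' protocols. The authors deposited raw whole-number counts per gene and library, per the file headers, and FPKM values scaled by the authors to gene length and depth, per the file headers. GRCm38 was the genome build, per the submitters' processing notes; the aligner, like the counting tool and the use of strand, is not given in the sources used here. Lines of annotation text (10) without values were left out of the 26770 entries, of which 4735 were unannotated loci.

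Counts were analysed with edgeR 4.0.16 in R 4.3.3: TMM factors (0.923 to 1.07), the filterByExpr filter, which left 15447 genes, and quasi-likelihood tests on contrasts of the 3 group means, fitted to all 9 libraries at once. All adjusted p are Benjamini-Hochberg values over all genes tested, by edgeR unless another tool is named, with a threshold of 0.05. CPM use TMM-scaled totals, 95% intervals of fold changes use the fitted degrees of freedom, and the interval of a ratio of few counts covers counting error only. Likeness used log2 CPM with a prior count of 2. Alternatives were DESeq2 1.42.0, limma 3.58.1 (limma-trend) on log2(FPKM + 0.1) with at least 1 FPKM in 3 libraries, other filters and size factors, fits of 2 groups, a replicate block and libraries left out. The fit was tested on simulated counts.

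Promoters came from RefSeq (GRCm38.p6) and positions and 3′ UTRs from GENCODE M21; sequences were searched with Python 3.11.15 and coding sequences aligned with Biopython 1.88. Of each pathway list, up to 3 called genes of lowest p per comparison were named, and the 3 genes of highest correlation per ligand. The ligands and all lists were chosen with earlier results of these data known.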

Additional observations from a re-analysis of the deposited data

How the results depend on the processing

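The calls of Cxcl1, Cxcl2 and Cxcl3 against untreated held under all 18 alternatives in both comparisons. For LPS with octanal against LPS, where edgeR called 0 genes and 0 ligands, the number of genes was 279 without a filter, 67 with at least 1 CPM in 3 libraries, 1624 by DESeq2, 1380 in the fit of the 2 groups alone, 118 without unannotated loci and 156 by limma-trend on FPKM. The number of ligands called there was 3 by DESeq2 and 2 in the fit of the 2 groups alone. For LPS with octanal against untreated (1339 genes) it was 2654 by DESeq2, 404 in the fit of the 2 groups alone and 435 with replicate 1 of both LPS groups left out, which gave 2321 for LPS against untreated (5072 genes). The causes were not tested.

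Leaving out single libraries gave 0 to 584 genes and 0 to 1 ligands for LPS with octanal against LPS, 298 to 2137 genes and 3 to 4 ligands for LPS with octanal against untreated, and 2387 to 5658 genes and 3 to 5 ligands for LPS against untreated. The ratio of the summed ligand CPM stayed at 1.524 to 1.758, 5.98 to 6.704 and 3.575 to 4.127 in these comparisons. Signs turned for ligands that were not called. Cxcl16 in LPS with octanal against untreated ranged from -0.083 without LPS with octanal replicate 1 to 0.50 without replicate 2 of that group, and was -0.085 without replicate 1 of both LPS groups. Cxcl9 ranged from -1.54 (without LPS with octanal replicate 2) to 0.41 (without untreated replicate 2) in LPS with octanal against untreated, and from -0.14 (without untreated replicate 1) to 1.40 (without untreated replicate 2) in LPS against untreated, where it was -0.068 without LPS replicate 3. The list counts without single libraries were added after the data were seen.

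Same-numbered libraries correlated at -0.0848 to 0.163 after removing group means, and 1 of 9 matched its own number best. The highest value was that of LPS replicate 1 and LPS with octanal replicate 1. The labels do not say whether the numbers pair the libraries, and these correlations cannot exclude it. With the replicate as a block, 0 genes were called for LPS with octanal against LPS, 923 for LPS with octanal against untreated and 4257 for LPS against untreated, with 0, 3 and 4 ligands, and Cxcl2 at 0.85 (adjusted p = 0.0686), 4.40 (0.000225) and 3.55 (0.000748).

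On FPKM the median log2 fold change of 11831 genes was -0.12 for LPS with octanal against LPS, 0.03 for LPS with octanal against untreated and 0.12 for LPS against untreated, where counts gave -0.03, 0.01 and 0.01, and the share of calls that were higher in LPS against untreated was 60.4% on FPKM and 46.4% on counts. No ligand turned its sign on FPKM. Cxcl9 was below the FPKM and 1 CPM filters and had no value there. Both few counts and the spread between libraries limit Cxcl9.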

Other observations

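The length by which the authors' FPKM appear to divide counts can be worked out per library from both columns, and it differed for Cxcl2 alone among the ligands between untreated and stimulated libraries. It was 1.364, 1.329 and 1.325 kb in LPS with octanal replicates 1 to 3, 1.294, 1.362 and 1.341 kb in the LPS replicates and 1.459, 1.417 and 1.429 kb in the untreated replicates. The means were 1.339 ± 0.0212 kb in LPS with octanal, 1.333 ± 0.0349 kb in LPS and 1.435 ± 0.0218 kb in untreated libraries (SD, n = 3), and an exact two-sided permutation test gave p = 0.1 for each stimulated group against untreated, the smallest that 3 against 3 libraries allow. GENCODE M21 lists Cxcl2 transcripts of 1109 and 1859 bases that encode protein and of 2066 and 397 bases that retain an intron. The FPKM fold changes of Cxcl2 against untreated, 4.50 in LPS with octanal and 3.75 in LPS on the log2 scale, stood beside count-based values of 4.42 and 3.55. For Cxcl3, this length was 1.087 ± 0.00865, 1.083 ± 0.00906 and 1.086 ± 0.00753 kb in LPS with octanal, LPS and untreated libraries. Its coding sequence is 89.8% identical to that of Cxcl2.

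Genes within 100 kb of the attractants differed in the order of their group means. Between Cxcl3 and Cxcl1 lies Cxcl15, without counts, and beside Cxcl3 lie the platelet chemokine genes Pf4, at 18.7 ± 13.9, 24.7 ± 9.21 and 30.3 ± 9.82 CPM, and Ppbp, at 13 ± 8.14, 19.4 ± 13.8 and 20.5 ± 9.41 CPM in LPS with octanal, LPS and untreated libraries. Cxcl5, beyond these, had its means in the order of the attractants, at 5.45 ± 2.23, 3.99 ± 1.03 and 3.25 ± 0.913 CPM, without a call. Mthfd2l, beyond Cxcl2, stood at 3.01 ± 0.199, 2.25 ± 0.279 and 3.67 ± 0.993 CPM in these groups, where Cxcl2 itself stood at 638 ± 149, 349 ± 58.8 and 29.9 ± 4.18 CPM. Near Cxcl10, Ppef2 stood at 0.326 ± 0.113, 0.257 ± 0.0905 and 1.12 ± 0.705 CPM, Naaa at 30.9 ± 8.40, 14.4 ± 3.73 and 106 ± 81.0 CPM, and Scarb2 at 181 ± 30.4, 136 ± 18.9 and 222 ± 22.3 CPM, all with the highest mean in untreated libraries. Nup54, at 60.0 ± 8.31, 56.4 ± 1.71 and 46.5 ± 1.85 CPM, and Sdad1, at 104.5 ± 28.1, 76.1 ± 2.58 and 70.9 ± 10.9 CPM, had their lowest mean in untreated libraries, as did Cxcl10 at 11.3 ± 6.98, 20.8 ± 8.50 and 3.55 ± 2.40 CPM.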
